A study of Homo sapiens with 47 samples.

Results

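The regions described here are stretches of chromatin that were open in vemurafenib-resistant 451Lu melanoma cells and in none of 3 other states of the same line. They are called resistant-only gains below. The peaks of 8 ATAC-seq libraries on chromosomes 1 to 22 were merged into 122350 union regions, any overlap joining peaks, and a region was selected on its measured calls: a peak in both resistant libraries and in none of the other 6. This left 4792 regions, which is 3.92% of the union and covers 1.89 Mb. The other 6 libraries were 2 each from parental 451Lu cells, from cells labelled shp150_AP1 and from their vector_NT controls. Because the calls chose the regions, the calls, scores and widths from these 8 libraries are given as a description, without a test.

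The series followed chromatin in 2 melanoma cell lines, 451Lu and WM983B, each as a parental and a vemurafenib-resistant population. The shp150_AP1 cells are 451Lu cells that over-express c-JUN and c-FOS, both components of AP-1, and carry an shRNA against p150. Their vector_NT control carries the vector and the NT control. Further 451Lu cells carried a single change: AP1 (c-JUN and c-FOS without the shRNA) against vector, and shp150 (the shRNA) against NT. There were 2 libraries for each group in ATAC-seq and H3K9me3. For H3K27ac the labels also list 2 samples a group, but only 1 a group had a file used here. It was labelled replicate 1 for 451Lu and replicate 2 for WM983B. The labels do not say whether replicates came from separate cultures, so p-values measure the spread between libraries, which may be technical. The sources used here do not state how many clones a resistant population holds or whether vemurafenib was present at harvest.

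ATAC-seq marks chromatin that the Tn5 transposase can enter, mostly promoters and enhancers that nucleosomes leave accessible. Acetylation of histone H3 at lysine 27 (H3K27ac) sits on the nucleosomes flanking active promoters and enhancers, while trimethylation at lysine 9 (H3K9me3) is the mark of constitutive heterochromatin, where DNA is packed and mostly silent. AP-1 is a family of dimeric transcription factors built from JUN and FOS proteins that binds many enhancers, p150 is the name of the large subunit of the histone chaperone CAF-1, which deposits histones behind the replication fork, and vemurafenib inhibits mutant BRAF, the kinase that drives many melanomas.

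Resistant cells had 10903 regions called in both of their libraries and in no parental library, and the resistant-only gains were 44% of these. A further 3829 were also called in at least 1 shp150_AP1 library and in no vector_NT library, 540 in vector_NT but not shp150_AP1, and 1742 in both kinds. Among the 3829 were 1743 called in both shp150_AP1 libraries, used below as the class of shared gains. The converse class, called in both shp150_AP1 libraries alone, held 1238 regions and is called the shp150_AP1-only gains. All 8 libraries called 53916 regions.

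The choice of 2 libraries out of 8 drew a line through a gradient. Just outside it lay 3039 regions called in both resistant libraries and in exactly 1 of the other 6. That single library was a shp150_AP1 library in 837 and 1249 cases, for replicates 1 and 2, against 276 and 218 for parental and 267 and 192 for vector_NT. The median score of the lone extra peak was 5.28, and the median smaller resistant score of these regions was 6.75, against 5.81 for the resistant-only gains inside the line. Another 3391 regions were called in resistant replicate 1 and no other library, and 4464 in replicate 2 and no other. The nearest peak of the other 6 libraries lay at a median of 6912 bp from a resistant-only gain, and 251 of them (5.24%) had one within 0.5 kb.

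The resistant-only gains were narrow and of modest score. The score is the authors' value for each peak. The sources used here do not define it, and it starts at 2.01 and 2.04 in the resistant lists. The median score of a gain was 6.83 in resistant replicate 1 and 7.13 in replicate 2, and the replicate 2 score was the higher one in 2307 regions (48.1%). Taking the smaller of the 2 scores, 5% of gains lay below 3.39, the lower and upper quartiles at 4.58 and 7.88, 5% above 12.4, and the highest reached 26.7. A smaller score of at least 10 was found in 577 gains (12%), against 703 of the shared gains (40.3%). Median width was 372 bp, with 5% below 245 bp and 5% above 619 bp, against 503 bp for shared gains, 374 bp for shp150_AP1-only gains and 765 bp for regions called in all 8 libraries. The 2 scores of a gain had a Spearman correlation of 0.46 over the 4792 regions, which share libraries and are not independent.

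**Figure D1:**
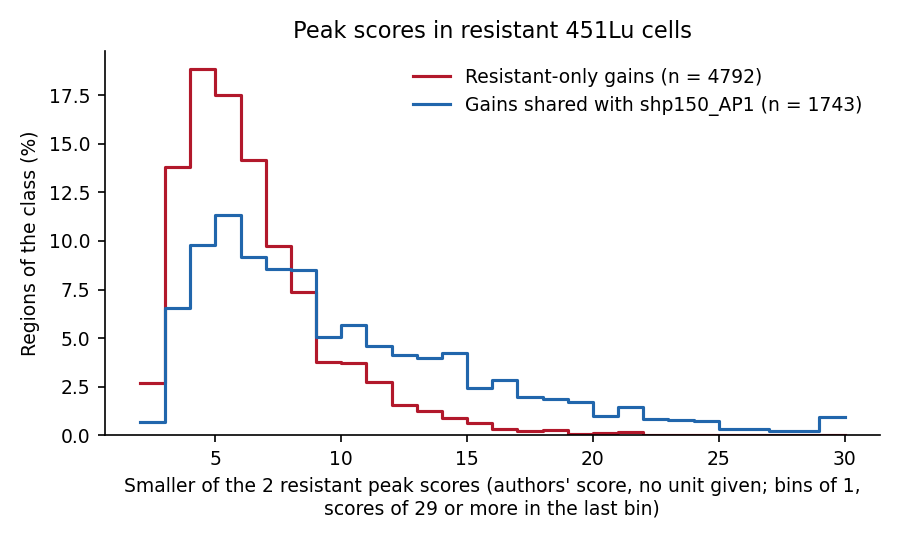
Distribution of the smaller of the 2 resistant ATAC-seq scores, in percent of the regions of each class, for the 4792 resistant-only gains and the 1743 gains shared with shp150_AP1. The resistant-only gains peak at scores of 4 to 6 and 12% reach 10, whereas 40.3% of the shared gains do.

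In the other line, WM983B, the 2 replicate numbers of the ATAC-seq libraries stood apart. Libraries with the same number shared 0.579 and 0.61 of their covered bases (Jaccard index), and libraries with the same label 0.511 in both groups. WM983B peaks were also narrower than those of 451Lu, with medians of 170 to 190 bp. Over a union built from the WM983B ATAC-seq libraries themselves, the 17051 regions called in both replicates 2 and no replicate 1 held 337 with H3K27ac in resistant WM983B cells alone and 129 with it in parental cells alone. The 7522 regions of the reverse pattern held 27 and 283. Split by label, the 2892 regions in both resistant and no parental library held 66 and 70, and the 2382 of the reverse pattern 24 and 29. In these counts the ATAC-seq replicate number went with the H3K27ac labels and the ATAC-seq label did not. The counts rest on 1 H3K27ac library a group, with lists of unequal length, and shares over all WM983B regions are not given here. Whether the ATAC-seq labels are mixed up or the numbers mark batches cannot be told apart. A doubt over the WM983B ATAC-seq labels remains, and comparisons by them below are of libraries as labelled.

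Positions are in hg19, the build named in the submitters' processing notes. No gene names are attached, since no annotation of that build was used here. The gain with the highest smaller score was chr7:47375671-47376401, 731 bp wide, with scores of 32.1 and 26.7. A peak of another 451Lu library lay only 597 bp from it, and in WM983B it was called in replicate 2 of parental (score 10.9) and of resistant cells (9.03) but in neither replicate 1. After it ranked chr7:47553307-47553893 on the same chromosome, which scored 26 and 25. It too was called in WM983B only in the replicates 2, at 4.19 and 5.01. Next came chr3:44058219-44058689, with 24.7 and 27.1, which all 4 WM983B libraries called: 6.92 and 25.8 in parental replicates 1 and 2, and 6.98 and 33.1 in resistant replicates 1 and 2. These 3 loci had no H3K27ac peak and no H3K9me3 island in any library read.

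The 9 gains ranked after them by smaller score divided into a few kinds. At chr3:114225711-114226192 the scores were 23 and 27.3, and only the WM983B replicates 2 called it, at 8.24 in parental and 22.4 in resistant cells. The locus chr1:87290960-87291479 (21.9 and 31.4) followed the same pattern at 2.58 and 3.82. Another 3 lay inside H3K9me3 islands in all 8 H3K9me3 libraries and were closed in WM983B: chr2:20262351-20262827 (22.5 and 22.6), chr6:21273750-21274253 (23.7 and 21.9) and chr3:62531997-62532344 (22.4 and 21.5). Island fold over input at the chr6 locus ranged from 1.85 to 4.45, while at chr3:62531997-62532344 it was 0.834 to 1 in every library, at or below input. The locus chr8:80267799-80268265 (21.9 and 25.2) was called in all 4 WM983B libraries and had H3K27ac in resistant WM983B cells alone, at a score of 6.46, besides an H3K9me3 island in parental replicate 2 of 451Lu. The remaining 3, chr13:34186865-34187409, chr3:45721269-45721685 and chr2:176783091-176783514, had smaller scores of 22.9, 21.6 and 21.3 and were called in no other library of any assay.

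H3K27ac peaks seldom lay on a resistant-only gain in either state of 451Lu, and the gains near one were mostly near a peak of resistant cells alone. The resistant 451Lu library had an H3K27ac peak overlapping 200 gains (4.17%, exact Clopper-Pearson 95% interval 3.63 to 4.78), and the parental library overlapped 21 (0.438%, 0.271 to 0.669), against 14% and 11.7% of all union regions. In 180 gains (3.76%, 3.24 to 4.33) the peak was in resistant cells alone, below the 5.27% of all union regions, and in 1 gain it was in parental cells alone (0.0209%, against 3.01% of all regions). A distance of 1 kb was then used, a setting chosen after seeing the data. Within 1 kb, 1012 gains (21.1%) had a resistant H3K27ac peak and 173 (3.61%) a parental one, against 24.8% and 17.8% of all regions, so the gains were below the average region in both libraries and further below in the parental one. A peak within 1 kb in resistant and not in parental cells was found at 886 gains (18.5%, against 11.5% of all regions), and the reverse at 47 (0.981%, against 4.52%). Intervals cover counting error only, and with 1 library a group there is no replicate check on these differences.

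The position of H3K27ac peaks around the middle of a gain had 2 shoulders with a dip between them. In resistant 451Lu cells, 8.56% and 8.35% of gains had a peak in the bins 625 bp to the left and right of the middle, and 3.59% and 3.53% in the bins 125 bp to either side. Parental cells had no shoulder: 1.04% and 0.918% of gains at 625 bp, and 0.459% and 0.438% at 125 bp. Beyond 4 kb the resistant library was still the higher one, between 1.38% and 1.69% against 0.835% to 1.09%. WM983B showed the same shape at these 451Lu loci, with 5.63% and 4.78% at 625 bp in resistant and 3.76% and 3.55% in parental cells. A shoulder was thus present in both WM983B libraries and in resistant 451Lu cells and absent from the parental 451Lu library, whose list was the shortest of the 4.

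**Figure D2:**
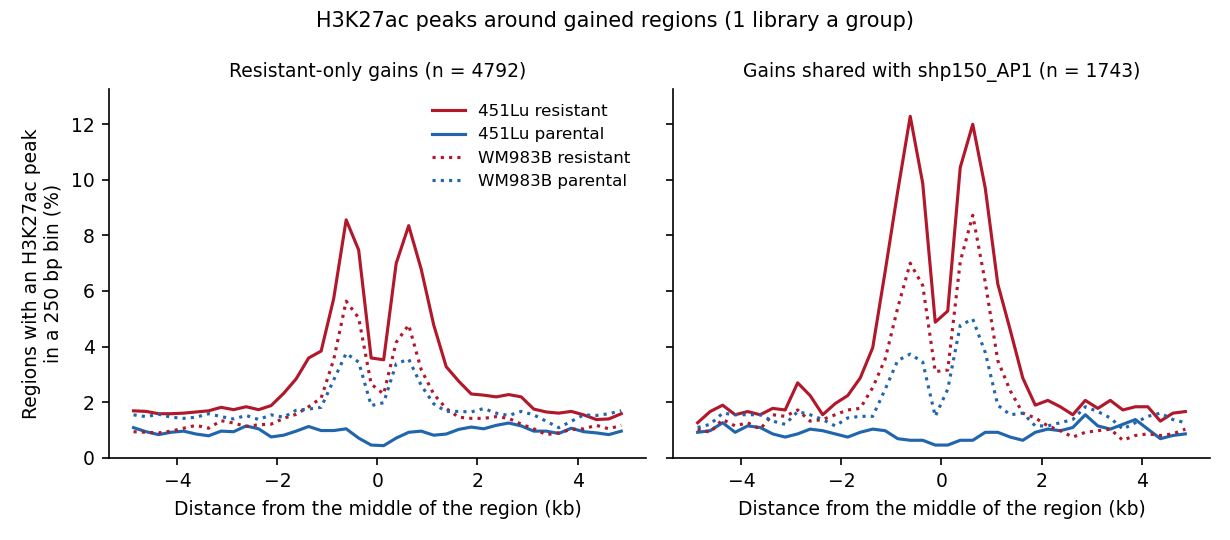
Percent of regions with an H3K27ac peak in each bin of distance (kb) from the middle of the region, for the 4792 resistant-only gains (left) and the 1743 shared gains (right). Lines are the single libraries of resistant (red) and parental (blue) 451Lu (solid) and WM983B (dotted). Flanking shoulders reach 8.56% in resistant 451Lu cells at resistant-only gains, and the parental 451Lu line runs between 0.438% and 1.25% there.

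The resistant 451Lu list of H3K27ac peaks was longer than the parental one, at 50948 peaks against 31807, and reached lower scores, 1.44 against 1.89. With the resistant list cut to its 31807 highest peaks, 613 gains (12.8%) had a peak within 1 kb in resistant cells alone and 61 (1.27%) in parental cells alone. Over all union regions the same cut gave 7.27% and 6.06%, and over regions called in all 8 libraries 8.45% and 10.1%. The excess at the gains was therefore still present with lists of equal length. Shared gains had a resistant-only peak within 1 kb in 19.4% of cases on the equal lists and in 27.1% on the full lists. In the shp150_AP1-only gains, closed in resistant cells by their definition, the full lists gave 83 of 1238 (6.7%). The median distance to the nearest H3K27ac peak was 11614 bp in resistant and 32842 bp in parental 451Lu cells for the resistant-only gains, against 11698 and 22478 bp for all regions.

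The 8 gains of highest smaller ATAC score among those with resistant-only H3K27ac on them are given next. The first, chr2:43313647-43314070 (ATAC scores 15 and 18.4), had the highest H3K27ac score of the 8, 51. In WM983B it was open in all 4 libraries, at 18.4 to 32.2, with H3K27ac of 7.08 in parental and 15.2 in resistant cells. At chr14:69044433-69044877 (16.9 and 14.6) the H3K27ac score was 25.3, and WM983B had 11.1 in parental and 30.1 in resistant cells. At chr19:47473903-47474384 (14.5 and 14.5) it was 31.1, and WM983B had a peak of 9.46 in resistant cells alone. At these 3 loci H3K27ac was also higher in resistant than in parental WM983B cells. The other 5 had H3K27ac scores from 3.51 to 13.6. Among them chr1:232644202-232644515 had 13.6, with WM983B calling H3K27ac in parental cells only (21.5), the opposite direction to 451Lu. Of the 8 loci, 6 were called by all 4 WM983B ATAC-seq libraries.

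In WM983B the 2 H3K27ac libraries covered similar numbers of gains. The resistant library overlapped 144 (3.01%) and the parental library 113 (2.36%), against 12% and 13.7% of all regions. Resistant-only peaks overlapped 86 gains (1.79%, against 2.91% of all regions) and parental-only peaks 55 (1.15%, against 4.56%). The WM983B lists were of opposite length to those of 451Lu, 35477 peaks in resistant and 49682 in parental cells, and within 1 kb they gave 620 gains (12.9%) and 499 (10.4%), against 20.1% and 24.2% of all regions.

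Most resistant-only gains lay outside H3K9me3 islands in every library. Islands are broad domains of reads set against input, here with 11.5 M to 30.9 M ChIP reads inside them in each of the 8 libraries. Not every island was enriched. Among islands that gains touched, a fold under 1 was commoner in resistant than in parental libraries, as given below. No library placed 3574 gains (74.6%) in an island, against 82.1% of all regions, and all 8 did so for 181 (3.78%, against 2.68%). In parental cells 12.4% and 12.9% of gains touched an island in replicates 1 and 2, and in resistant cells 11.2% and 9.89%. Both resistant libraries were below both parental ones. The means were 10.6% ± 0.944 and 12.6% ± 0.295 (SD, n = 2 each), a difference of -2.09 percentage points with a two-sided exact permutation p of 0.333, the smallest that 2 against 2 libraries allow. With islands at a false discovery rate of at most 0.01 the difference was -4.22 points. That filter kept 85% and 86.4% of the islands in resistant libraries and 93.2% in each parental library. The difference over all regions under this filter is not given here, so -4.22 cannot be read as particular to the gains.

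The mean difference had the other sign over regions called in all 8 libraries, and over all union regions, where the libraries overlapped. All union regions were in islands 8.48% ± 0.785 of the time in resistant and 8.13% ± 0.0613 in parental cells, a difference of 0.35 points. Resistant replicate 1 was at 9.04% and replicate 2 at 7.93%, above and below both parental libraries at 8.17% and 8.09%. Regions called in all 8 libraries differed by 1.05 points, without overlap. With the percent over all regions taken off in each library, a setting chosen after seeing the data, the difference at the gains was -2.44 points. Shared gains differed by -1.18 points and shp150_AP1-only gains by 1.13, with overlapping libraries in both. Resistant libraries had fewer islands, 39905 and 50017 against 61470 and 70332, covering 288 and 267 Mb against 326 and 335 Mb, and the part of this in the result was not tested.

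The engineered cells were compared with their control in the same way. By the rule, none of these loci had an ATAC-seq peak in either. Islands touched 9.24% and 10.4% of gains in shp150_AP1 libraries and 14.5% and 13.8% in vector_NT libraries, without overlap. The difference was -4.31 points (9.82% ± 0.812 against 14.1% ± 0.531, SD, n = 2 each, exact permutation p = 0.333). For all regions it was -1.65 points, for shared gains -4.02 and for shp150_AP1-only gains -1.49. The vector_NT libraries were also the deepest, with 30.9 and 21.7 M ChIP reads in islands against 11.5 and 14.8 M for shp150_AP1, and what depth contributed was not tested.

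**Figure D3:**
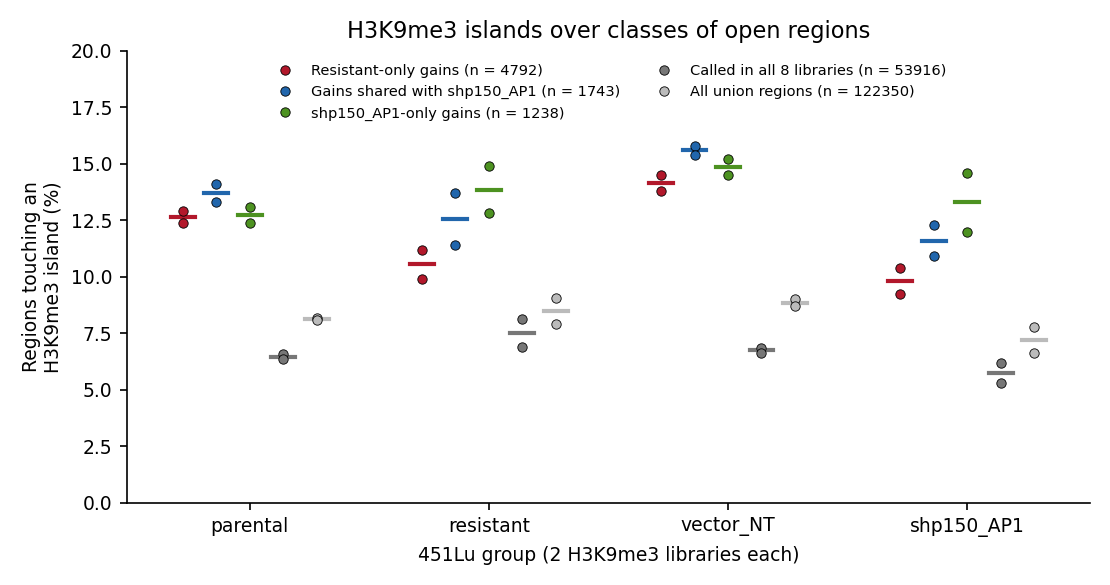
Percent of regions touching an H3K9me3 island in each 451Lu library (points, 2 a group, bars at their mean) for 5 classes of open region. Resistant-only gains (red) are at 12.4% and 12.9% in parental and at 11.2% and 9.89% in resistant libraries, whose points do not overlap, while those of all union regions (light grey) do.

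Counted locus by locus, 119 gains (2.48%, against 1.25% of all regions) lay in islands of both parental libraries and of no resistant library, and 41 (0.856%, against 1.24%) the reverse. Between the engineered cells and their control, 120 gains (2.5%, against 1.41%) were in islands of both vector_NT and no shp150_AP1 library, and 15 (0.313%, against 0.454%) the reverse. Of the 119 gains, 106 were in an island of at least 1 vector_NT library and 61 in one of at least 1 shp150_AP1 library. Of the same 119, 30 were also in both vector_NT and no shp150_AP1 library. Of the 442 gains in islands of both parental libraries, 235 (53.2%) were in islands of both resistant libraries too. The shares of all regions for the overlaps within the 119 and the 442 gains are not given here. Whether these overlaps are particular to the gains was therefore not tested. The fold over input of the islands that gains touched had medians of 1.75 and 1.81 in parental and 1.27 and 1.34 in resistant libraries, and regions called in all 8 libraries showed the same step, from 1.73 and 1.77 to 1.2 and 1.25.

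The 6 gains of highest score with an island in both parental libraries and none in the resistant ones are given next. At chr6:14743711-14744479 (ATAC scores 22 and 18.2) the island fold was 2.55 and 2.9 in parental and 2.79 and 3.53 in vector_NT cells, with no island in shp150_AP1 cells. The locus chr18:53457451-53457882 (16.1 and 13.1) had the highest fold, 3.11 and 4.91 in parental and 2.23 and 2.77 in vector_NT, and again none in shp150_AP1. Both NT libraries and shp150 replicate 2 had an ATAC-seq peak at this locus. By contrast, chr3:97590964-97591589 (20 and 16.4) kept an island in both shp150_AP1 libraries at 1.81 and 1.68, below its parental 2.51 and 2.7. The first 2 islands were thus missing from both the resistant and the shp150_AP1 cells. The rule had left out any region with an ATAC-seq peak in shp150_AP1 cells, so the lack of a peak there was set in advance. All 3 were open in the 4 WM983B libraries. The other 3, chr6:19472336-19472771, chr8:135988520-135989017 and chr2:12899318-12899774, each had an island in exactly 1 shp150_AP1 library.

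Resistant-only gains of 451Lu were called less often than the average region in every WM983B library. The gains were narrower, at a median of 372 bp against 519 bp for all regions, which include the 53916 called in all 8 libraries. What width contributed to the calls was not tested. Parental WM983B libraries called 34.5% and 48.8% of the gains (replicates 1 and 2), and resistant WM983B libraries 35.4% and 50.3%, whereas all union regions were at 62.7% to 63.6% in the 4 libraries. The shares thus followed the replicate number, with both replicates 2 above both replicates 1, and not the label. The means were 42.9% ± 10.6 in resistant and 41.6% ± 10.1 in parental cells (SD, n = 2 each), a difference of 1.26 points with overlapping libraries (exact permutation p = 0.667). Between same-numbered libraries the resistant one was higher by 0.96 points for replicate 1 and by 1.57 for replicate 2. Leaving out parental replicate 1 turned the difference to -5.9 points, and leaving out resistant replicate 2 to -6.2.

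**Figure D4:**
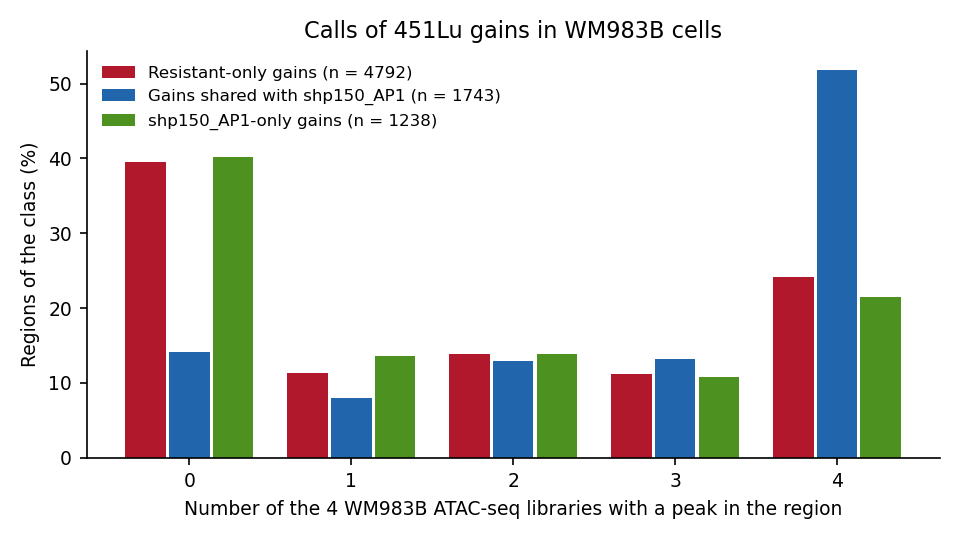
Percent of regions of each class that carry a peak in 0 to 4 of the WM983B ATAC-seq libraries (bars). Of the resistant-only gains (red) 39.5% had no WM983B peak and 24.1% had 4, whereas 51.8% of the shared gains (blue) had 4.

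All 4 WM983B libraries called 1153 gains (24.1%, against 49.5% of all regions), and none called 1891 (39.5%, against 23.4%). Another 546 were called by 1 library, 667 by 2 and 535 by 3. Shared gains were called by all 4 in 51.8% of cases and by none in 14.2%, while the shp150_AP1-only gains, at 21.5% and 40.2%, had shares close to those of the resistant-only gains. Among the highest of 5 equal groups of gains by smaller score, 8.6 or more, 26.9% were called by all 4, which compares with 51.8% of the shared gains, whose median smaller score was 8.6. Median width still differed, at 432 bp in that group and 503 bp in the shared gains, and its part was not tested. A call by label was rare in either direction: 31 gains (0.647%, against 0.763%) were in both resistant and no parental WM983B library, and 29 (0.605%, against 0.705%) the reverse. A call by replicate number was commoner, with 490 gains (10.2%, against 3.33%) in both replicates 2 and no replicate 1 and 57 (1.19%, against 3.24%) the reverse.

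The gains called in both resistant and no parental WM983B library with the highest scores were 5 loci. At chr22:41878520-41879388 (18.7 and 17.6 in resistant 451Lu) WM983B resistant cells scored 5.7 and 9.82. This locus was not silent elsewhere, since both AP1 and both vector 451Lu libraries called it and H3K27ac lay on it in both states of both lines, at 8.02 in parental and 25.5 in resistant 451Lu cells. The others were chr1:171771348-171771826, chr21:35542934-35543519, chr7:25052326-25052705 and chr8:139590533-139591189. Their smaller 451Lu scores ran from 10.2 down to 8.18, and no H3K27ac peak lay on any of the 4. Among the loci open in all 4 WM983B libraries, chr11:113060817-113061391 (20.6 and 21.4), chr7:30845505-30845872 (20.3 and 22.1) and chr4:5637371-5637907 (19.7 and 20.2) ranked highest after the 2 already given.

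Flanking H3K27ac, at the 1 kb distance chosen after seeing the data, and openness in WM983B went together among the gains. Of the 886 gains with a resistant-only 451Lu H3K27ac peak within 1 kb, all 4 WM983B ATAC-seq libraries called 342 (38.6%) and none called 205 (23.1%). Of the other 3906 gains, all 4 called 811 (20.8%) and none called 1686 (43.2%). An H3K27ac peak of either WM983B library lay within 1 kb of 433 (48.9%) of the first set and 396 (10.1%) of the second. The first set had a median smaller ATAC score of 6.3 and a median width of 385 bp, and the second 5.81 and 370 bp. Location in parental H3K9me3 islands showed no such split, as all 4 WM983B libraries called 25.1% of the gains in islands of both parental libraries and 24.2% of those in no parental island. These shares describe regions of the same few libraries and carry no test. The same splits over all union regions are not given here, so whether they are particular to the gains was not tested.

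Resistant-only gains were seldom called in cells with a single change or in their controls. The rule had already taken out every region called in parental, vector_NT or shp150_AP1 cells of the same line. Low shares here are therefore partly set by the choice of regions. All regions include 53916 called in all 8 libraries, and both other classes of gain were called in shp150_AP1 cells by definition. At least 1 of the 8 AP1, vector, shp150 and NT libraries called 448 gains (9.35%), against 59.2% of all regions, 33% of the shared gains and 21.2% of the shp150_AP1-only gains. The AP1 libraries called 0.772% and 1.15% of gains against 1.71% and 1.57% in the vector libraries, a difference of -0.678 points (0.96% ± 0.266 against 1.64% ± 0.103, SD, n = 2 each, exact permutation p = 0.333). The hairpin alone gave 1.73% and 1.75% against 4.28% and 3.9% with NT, a difference of -2.35 points (1.74% ± 0.0148 against 4.09% ± 0.266, SD, n = 2 each, exact permutation p = 0.333). In both pairs the control libraries were the higher ones, without overlap.

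Shared gains were called more often with AP1 than with vector on average, by 0.889 points, but their libraries overlapped. With shp150 they were called less often than with NT, by 11.9% against 19.3%. Over all regions the AP1 difference was -1.89 and the shp150 difference -8.01 points. The shp150 lists were the shortest, at 41829 and 42768 peaks, and all single-change lists were shorter (up to 55300 peaks) than the 77417 to 91970 of the libraries that chose the gains. With lists of equal length the difference at the gains was -0.428 points for AP1 and -0.741 for shp150. With list length divided out, a setting chosen after seeing the data, it was -0.625 and -1.72. Where 50% of a region had to be covered the AP1 difference was -0.407. Calls in both AP1 and no vector library were made for 2 gains (0.0417%, against 0.834% of all regions), and in both shp150 and no NT library for 4 (0.0835%, against 0.343%).

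**Figure D5:**
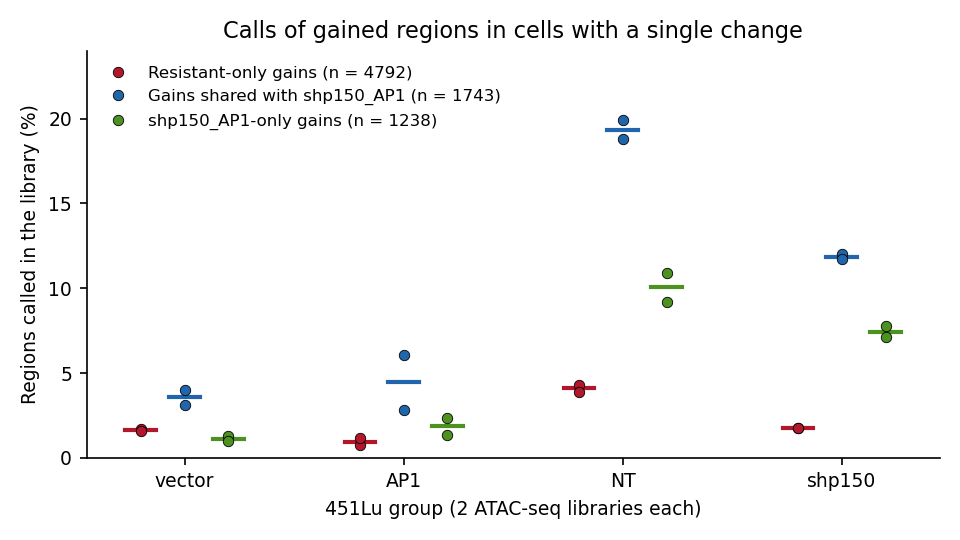
Percent of regions called in each single-change 451Lu ATAC-seq library (points, 2 a group, bars at their mean). The resistant-only gains (red) stay between 0.772% and 4.28%, below the shared gains (blue) in every library. Calls in shp150_AP1 cells had excluded the former and chosen the latter.

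An authors' deposited table for 451Lu lists 1784 intervals on chromosomes 1 to 22, on a 20 kb grid and covering 341 Mb, each with a log2 fold change. It names neither the direction of the comparison nor the assay, so the sign below is only that of the table. Of the gains, 1044 (21.8%) lay inside an interval, against 17.5% of all regions. Intervals of the authors' deposited table with a fold change above 0 and an adjusted p under 0.05 held 606 gains (12.6%, against 7.21% of all regions), and those below 0 held 265 (5.53%, against 7.45%). Shared gains stood at 12.3% and 6.25%, close to the resistant-only gains, and shp150_AP1-only gains at 5.82% and 5.41%.

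A few of these intervals were dense in gains. In the interval chr10:96900001-97140000, 7 of 19 union regions were resistant-only gains, and its log2 fold change in the authors' deposited table was 6.63 with a standard error of 0.34 (adjusted p 3.34e-81). The interval chr15:62600001-63380000 held 8 gains among 56 regions, at 3.95 in the authors' deposited table. At chr5:136220001-136840000 there were 6 among 36, at 4.14, again from the authors' deposited table. Other dense intervals had smaller fold changes in the authors' deposited table. At chr1:208100001-208460000 there were 6 among 36, at 2.54, and at chr12:2080001-2820000 there were 8 among 51, at 1.99. The interval chr13:110880001-111380000 held 7 among 38, at 0.33 with an adjusted p of 0.24 in the authors' deposited table. The 2 highest-scoring gains of all both lay in chr7:47200001-47880000, with 8 gains among 71 regions and a log2 fold change of 1.01 ± 0.25 (standard error) in the authors' deposited table.

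The gains were spread over the genome with few dense places. By chromosome they made up 2.2% (chromosome 19) to 5.1% (chromosome 10) of the union regions. Of 2730 windows of 1 Mb that hold a union region, 1995 held at least 1 gain and 192 held 5 or more. The highest count was 10, in 4 windows: chr5:148000001-149000000 and the window after it, with 92 and 120 union regions, chr20:48000001-49000000 with 111, and chr22:27000001-28000000 with 72. Chromosome 1 from 8 to 9 Mb followed in order with 9 among 97. Runs of neighbouring union regions that were all resistant-only gains numbered 270 and took in 555 gains (11.6%). Of these, 15 were runs of 3, the tightest at chr11:8836352-8848169 over 11818 bp, and none was longer. The nearest region called in all 8 libraries lay at a median of 14208 bp from a gain, against 15065 bp for shared and 20766 bp for shp150_AP1-only gains.

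Other readouts varied by a few points with the score of a gain. Over 5 groups of equal size by smaller score, from lowest to highest, resistant-only H3K27ac lay on 3.55%, 3.34%, 3.75%, 3.44% and 4.7%. Calls in all 4 WM983B libraries ran 23%, 24.1%, 24%, 22.2% and 26.9%, and calls in no WM983B library were 41.2% in the lowest and 38.2% in the highest group. Calls in WM983B parental replicate 1 were 32.8% in the lowest and 38.6% in the highest group. Contact with H3K9me3 islands was 10.7% and 15.2% in parental replicate 1, and 8.03% and 12.8% in resistant replicate 2. Median width was 352 bp in the lowest and 432 bp in the highest group, and its part in these shares was not tested. At the lower end, 3 gains shared the lowest smaller score of 2.02. Of these chr3:144275272-144275580 and chr3:156919417-156919880 were called in all 4 WM983B libraries, up to 16.7 and 19.8, and chr12:106521037-106521358 in none. The widest gain, chr2:45273803-45274930, spanned 1128 bp with scores of 8.45 and 6.75.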

How the data were processed

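Tools named in the submitters' processing notes, with no role or order, are MACS2, SICER, Bowtie2, deepTools, Picard and STAR 2.5.3, and the build is hg19. Duplicate handling, Tn5 shift and thresholds were not given in the sources used here. ATAC-seq and H3K27ac lists were deposited per library with a score for each peak, so their read depth is unknown. H3K9me3 islands were deposited with the ChIP and input read count, a p-value, a fold over input (ratio) and a false discovery rate, per the file headers. The labels list 1 input sample for shp150_AP1. The authors' deposited interval table gives log2 fold changes, standard errors, a p-value and an adjusted p for each interval. A deposited normalised signal column (base mean) was not used in any comparison. Of the series' 47 samples, 32 had a file used here, and RNA was not analysed here.

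Intervals were merged and overlapped (at least 1 bp) in Python 3.11.15 with numpy 2.4.6, pandas 2.3.3 and scipy 1.17.1. The interval functions were tested on simulated data. The regions and lists were chosen with earlier results of these data known. Group differences used exact two-sided permutation tests over libraries. Named loci were, by smaller resistant score, the top 12 of all, 8 with resistant-only H3K27ac, 6 with parental-only islands, 5 open in all 4 WM983B libraries, 5 open in resistant WM983B alone and 4 in authors' intervals, with the 3 widest, the 3 of lowest score and the 5 densest windows (ties by position). Gene lists, markers and an AP-1 motif search needed an hg19 genome and were not run. Alternatives covered overlap, score, list length, distance, false discovery rate, pairing and each library left out.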

Additional observations from a re-analysis of the deposited data

How the results depend on the processing

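The number of resistant-only gains was 3099 when both scores had to reach 5, and 3275 with ATAC-seq lists of equal length. The resistant lists were the longest of those that chose the gains, at 87509 and 91970 peaks against 77417 to 86032. The number was 4541 with no other peak within 0.5 kb, and 5792 where 50% of a region had to be covered. With 1 library left out the number was 4986 to 9356, with 9356 without resistant replicate 1 and 8283 without resistant replicate 2. The share with resistant-only H3K27ac, 3.76%, became 0.522% where 50% of a region had to be covered, 2.84% with H3K27ac lists of equal length and 4.43% for gains from ATAC-seq lists of equal length. Settings chosen after seeing the data gave 18.5% within 1 kb, 12.8% within 1 kb with equal lists and 25.7% within 5 kb. Taking off the percent over all regions and dividing out list length were also chosen after seeing the data. Leaving out 1 library gave -2.75 to -1.42 points for H3K9me3 in resistant minus parental, -4.88 to -3.74 for shp150_AP1 minus vector_NT, -0.866 to -0.49 for AP1 minus vector and -2.54 to -2.16 for shp150 minus NT. It gave -6.2 to 8.72 for WM983B, turning to -6.2 without resistant replicate 2 and -5.9 without parental replicate 1, which leaves libraries of unequal number against each other. With 1 library left in a group these are values with no test. With islands at a false discovery rate of at most 0.01 the H3K9me3 difference of resistant minus parental was -4.22, and that filter removed a larger share of resistant than of parental islands. With lists of equal length shp150 minus NT was -0.741 and AP1 minus vector -0.428. With the replicate block the differences kept their values, for example -2.09, and the exact permutation p was 0.5, the smallest 2 pairs allow. The labels do not say that a number marks a shared batch. The AP-1 motif alternative was not run. Read depth is unknown for the peak lists.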
